A study of Mus musculus with 419 samples.

Results

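Hif3a, its sister subunits Hif1a and Epas1, the oxygen-sensing hydroxylases Egln1 and Egln3, and the hypoxia-induced genes Vegfa, Slc2a1 and Epo were followed through 19 tissues of the mouse. These 8 genes were taken by symbol from a count table of 55487 genes, in bulk RNA-seq libraries from energy-deficient and energy-sufficient animals. They were chosen with their tissue levels and their responses to deficiency already known, so for treatment and for time of day the values are a description and carry no p. The calls of members given below mark where these same values passed a threshold. Neither they nor the refits that kept them are independent support. The CBA/CaJ inbred strain was shared by all animals. The groups were Deficient females, Control females, Deficient males and Control males, each collected at zeitgeber time 17 (ZT17) and 5 (ZT05), in hours after lights on. There were 3 libraries in 139 of the 140 groups of tissue, sex, treatment and time, so that an arm (1 sex, 1 treatment, both times) held 6 libraries; the exception was the 5 Control males of the tendon of the tibialis anterior (TA). Ovary and uterus came from females, testis from males, and the other 16 tissues from both sexes. The labels used here name neither the way in which the deficiency was imposed nor the age of the mice, and they give an animal number for each library, so the errors below measure the spread between animals within a tissue.

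Cells respond to a shortage of oxygen through hypoxia-inducible factors (HIFs), which are pairs of an oxygen-labile alpha subunit (from Hif1a, Epas1 or Hif3a) and the stable partner ARNT. While oxygen is present, prolyl hydroxylases encoded by Egln1 and Egln3 mark the alpha subunits for breakdown through the VHL ubiquitin ligase; when it runs short, the pair enters the nucleus and binds the hypoxia response element, whose core reads ACGTG or GCGTG. Oxygen thus acts mainly on the alpha subunit proteins, which RNA counts do not measure. Hif3a is the odd one of the family: in the mouse a short form, inhibitory PAS domain protein, is known to bind HIF1A and hold it back. Egln3, Vegfa (the main growth factor for vessels), Slc2a1 (the glucose transporter GLUT1) and Epo (erythropoietin, the hormone of red cell formation, made in the adult kidney) are textbook targets of the pathway, so that Egln3 is both a sensor and a readout.

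In GRCm38 with GENCODE M21, Hif3a (ENSMUSG00000004328) lies at chr7:17031507-17062427 on the minus strand, Hif1a (ENSMUSG00000021109) at chr12:73901375-73947530 on the plus strand and Epas1 (ENSMUSG00000024140) at chr17:86753700-86833410 on the plus strand. Egln1 (ENSMUSG00000031987) lies at chr8:124908587-124949324 and Egln3 (ENSMUSG00000035105) at chr12:54178981-54203860, both on the minus strand. Vegfa (ENSMUSG00000023951) lies at chr17:46016993-46032369 on the minus strand, Slc2a1 (ENSMUSG00000028645) at chr4:119108711-119137983 on the plus strand and Epo (ENSMUSG00000029711) at chr5:137483020-137533242 on the minus strand. The annotated span of Epo overlaps the genes Pop7 and Gnb2 on the same strand and Gigyf1 on the other, so its few reads cannot be separated from theirs without the strand and overlap settings of the counting, which are not given in the sources used here. RefSeq promoters (GRCm38.p6) were matched for 7 of the 8 members. The 250 bases before the start of Hif3a (chr7:17062428-17062677) and of Egln3 (chr12:54203875-54204124), both on the minus strand, are shown because these members carried the broadest and the largest differences below; capitals mark the core ACGTG or GCGTG, which appears as CACGT or CACGC where it lies on the other strand.
Hif3a: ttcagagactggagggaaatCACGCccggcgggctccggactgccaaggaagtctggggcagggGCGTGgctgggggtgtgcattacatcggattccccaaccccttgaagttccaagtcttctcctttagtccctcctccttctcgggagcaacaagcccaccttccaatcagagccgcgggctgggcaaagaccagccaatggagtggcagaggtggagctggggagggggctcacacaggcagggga
Egln3: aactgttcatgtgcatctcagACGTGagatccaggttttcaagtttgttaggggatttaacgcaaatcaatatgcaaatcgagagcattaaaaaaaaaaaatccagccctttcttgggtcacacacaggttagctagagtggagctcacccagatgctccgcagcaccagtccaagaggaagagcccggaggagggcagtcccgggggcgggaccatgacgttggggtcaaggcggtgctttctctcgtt
The Hif3a window held GCGTG at 2 places, 230 and 186 bases before the start and on opposite strands. Its Egln3 counterpart held ACGTG once, 229 bases before the start. ACGTG or GCGTG stood in the same 250-base window of 38.6% of the 32851 promoters in the table, so these matches describe the sequence and mark no binding site.

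Library totals ran from 5777450 to 53598697 counts. Animals were split here into 2 cohorts, a lower and a higher range of animal numbers, and the labels name no cohort. In 58 of the 419 libraries more than 50% of the counts fell on rRNA-like genes and genes of the mitochondrial genome. All 58 were males of the first cohort (lower numbers), and the lowest library kept 365102 counts on other genes. These libraries belonged to brown adipose tissue (BAT), gastrocnemius muscle and its tendon, heart, liver, lung, quadriceps and spleen. In 7 tissues (adrenal gland, kidney, soleus, extensor digitorum longus (EDL) and its tendon, TA and its tendon) all males came from the second cohort, so sex and cohort cannot be told apart there. In male BAT, Deficient ZT17 replicate 3 was of the second cohort and the other males of the first. In male spleen the same held for Control ZT05 replicate 3. Treatment and cohort are therefore partly mixed in the males of both tissues. Male gastrocnemius tendons held muscle: the summed level of 9 muscle fibre markers was 61062 to 226822 CPM in Deficient and 148692 to 202454 CPM in Control animals. All 9 markers also passed the filter on low counts in the tendons of EDL and TA. Fewer cells of a type and less RNA per cell cannot be told apart in bulk tissue, for any difference below. Levels are in CPM, counts on library sizes scaled within a tissue and set so that genes other than the mitochondrially encoded and rRNA-like ones sum to a median of 1000000; tissues were normalized separately, so the order of tissues rests on that scaling.

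Members differed in the tissues where they were most abundant. Over all libraries of a tissue, Epas1, the alpha subunit known from vessels and lung, reached 2617 ± 668 CPM in lung (mean ± SD, n = 24). BAT followed at 708 ± 228 CPM and heart at 367 ± 136 CPM, and the gaps from lung to BAT and from BAT to heart exceeded the SDs of both neighbours. Testis was lowest at 24.6 ± 3.03 CPM. Hif1a, the broadly expressed alpha subunit, was highest in uterus at 204 ± 89.3 CPM and ovary at 197 ± 57.8 CPM (n = 12 each), which did not differ beyond their spread. Spleen came next with 99.0 ± 24.7 CPM, further below ovary than either SD. For Hif3a the pituitary led with 40.8 ± 32.9 CPM, ahead of testis with 13.5 ± 1.98, lung with 12.4 ± 13.2 and heart with 6.95 ± 4.48 CPM. Uterus (1.61 ± 0.495 CPM) and liver (0.486 ± 1.16 CPM) were at the low end, and no gap between neighbours in the Hif3a order exceeded the SDs of both.

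The hydroxylases were abundant in muscle. Egln1, the main oxygen sensor, ran from 367 ± 79.7 CPM in TA and 341 ± 88.8 CPM in soleus to 12.7 ± 1.87 CPM in testis. That order pools the sexes, and heart stood apart in females: female hearts averaged 474 ± 49.7 CPM in Deficient and 519 ± 51.8 CPM in Control animals, the highest of the female tissues, and male hearts 132 ± 13.4 CPM in Deficient and 153 ± 29.5 CPM in Control animals (SD, n = 6 each). In males TA and soleus led. Male hearts included libraries over 50% mitochondrial and rRNA-like, and the part of this in the heart contrast was not tested. Egln3 showed the same contrast, with Control means of 36.0 CPM at ZT17 and 34.0 at ZT05 in male and 252 and 175 in female hearts. Hif3a did not, with 4.40 and 3.31 CPM in male and 4.29 and 2.94 in female Control hearts. Egln3 was highest in soleus at 254 ± 70.4 CPM, before quadriceps at 153 ± 118 CPM, and lowest in spleen at 2.72 ± 1.19 CPM and testis at 0.642 ± 0.207 CPM. Vegfa reached 930.3 ± 553 CPM in lung and 481 ± 197 CPM in the adrenal gland, against 3.76 ± 0.745 CPM in testis; in Deficient males the adrenal gland (673 ± 179.9 CPM) stood above lung (569 ± 366 CPM). Slc2a1 was highest in ovary, at 131 ± 44.9 CPM, above kidney at 64.2 ± 16.8 CPM by more than either SD. With every library scaled in 1 run over all tissues, Slc2a1 in ovary came to 59.4, Hif1a in uterus to 86.5 and Epas1 in lung to 1266 CPM.

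Epo was close to silent. Its mean was 0.156 ± 0.0842 CPM in ovary, 0.0580 ± 0.0818 CPM in kidney and 0.0297 ± 0.0582 CPM in uterus, with traces in testis and pituitary. No read was counted in any library of the other 14 tissues, which allows up to 3 counts per library. The 6 Deficient female kidneys held 0 to 7 reads each and the 6 Control female kidneys 1 to 5. Ovaries held 1 to 5 reads in both arms. Epo passed the filter on low counts in 0 tissues and no difference was tested.

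Per kilobase of exon, where genes can be compared with each other, Control lungs held 41.1 times as much Epas1 as Hif1a, and the ratio was 10.7 in TA, 10.4 in BAT and 1.59 in kidney. With the sexes pooled, pituitary (0.853), ovary (0.740) and uterus (0.689) were the 3 tissues with more Hif1a than Epas1 per kilobase. The pituitary ratio did not hold in Control males. Their Hif3a averaged 39.2 CPM at ZT17 and 32.5 at ZT05, at a median of 36.3% of the 3 alpha subunits per kilobase. With their Hif1a, given next, that leaves more Epas1 than Hif1a per kilobase. Mean Hif1a was 125 CPM at ZT17 and 117 at ZT05 in Control female pituitaries, but 13.4 and 19.1 CPM in Control males. Hif3a made up 24.8% of the 3 alpha subunits in Control testes and 15.2% in Control pituitaries, but 1.21% in gastrocnemius and 0.0336% in liver. Control livers thus carried almost no Hif3a RNA, and in muscle Hif3a started from a small share. Egln1 exceeded Egln3 15.6 times in testis and 13.6 times in spleen per kilobase, was level with it in soleus at 1.03, and stood below it in uterus at 0.769.

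**Figure D1:**
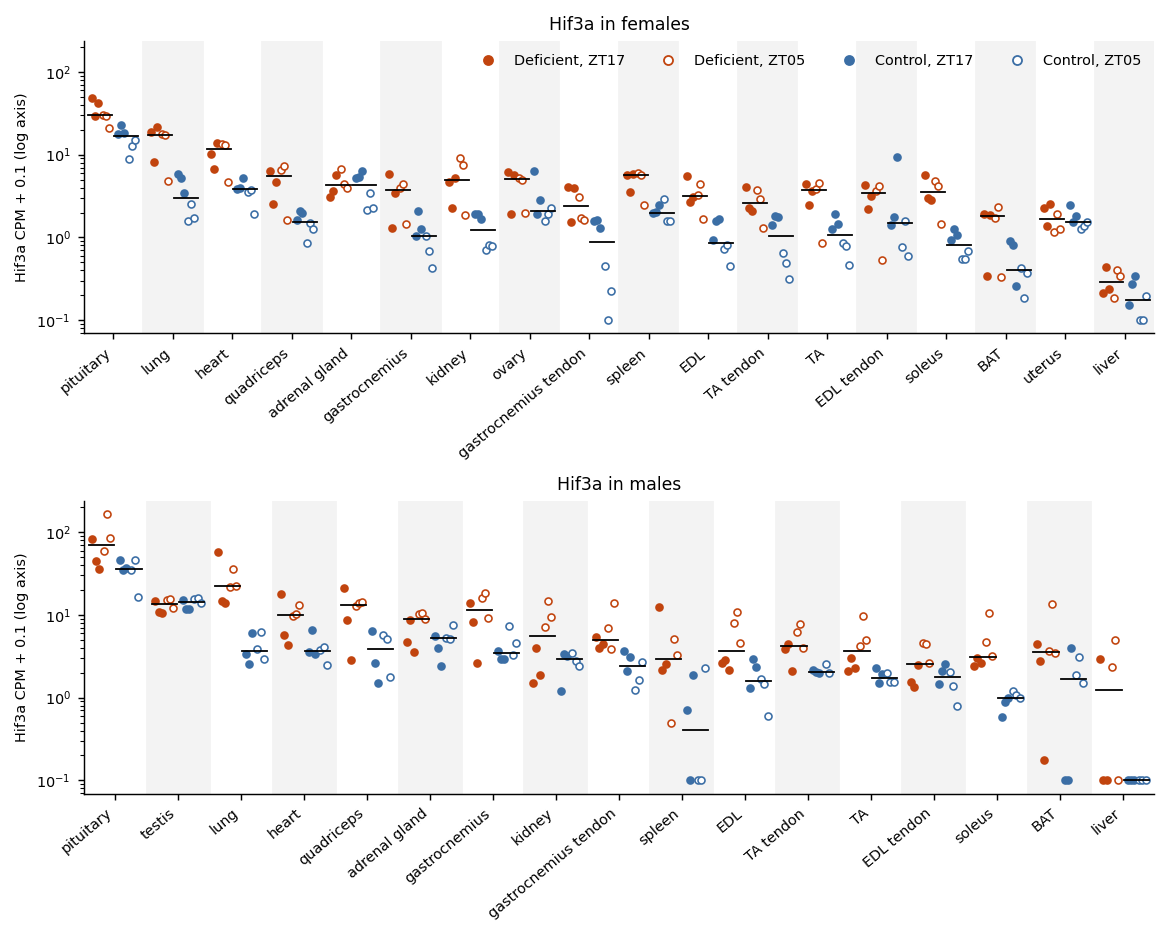
Hif3a level in every library, in CPM plus 0.1 on a log axis, by tissue, sex and treatment; filled circles are ZT17, open circles ZT05, and black lines mark medians of an arm. Deficient libraries lie higher in lung, soleus, heart and the leg muscles, and level with Control libraries in testis and uterus.

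Deficient animals carried more Hif3a in most tissues. The Deficient minus Control difference was above 0 in all 17 female tissues in which Hif3a passed the filter (median log2 fold change 1.72, range 0.08 to 2.34) and in 15 of 16 male tissues (median 1.28, range -0.10 to 2.80); the median over all genes was 0.010 in females and 0.0078 in males. A gene is called where the edgeR quasi-likelihood test, adjusted by Benjamini-Hochberg over all genes of the tissue, fell under 0.05. Hif3a was called up in 10 female and 7 male tissues, against 4.93% of all gene and tissue pairs called up in females and 3.09% in males. Since the gene was chosen for this pattern, nothing is read from the count. As a further description, 24 of 18202 genes tested in at least 5 female tissues (0.132%) were called up in 10 or more, and 29 of 17724 genes (0.164%) were called up in 7 or more male tissues.

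In males the difference was largest in lung. Hif3a in Deficient male lungs had a lowest, median and highest level of 13.8, 22.1 and 57.9 CPM, against 2.42, 3.52 and 6.12 CPM in Control male lungs, so the arms did not overlap (log2 fold change 2.80 ± 0.41, SE). Deficient female lungs had 4.77, 17.3 and 21.8 CPM and Control female lungs 1.46, 2.89 and 5.69 CPM, with 1 Deficient library inside the Control range (log2 fold change 2.30 ± 0.39). Both were called; the female call was kept in 15 of 24 refits that each left out 1 library, and the male call in 24 of 24. The mitochondrial and rRNA-like share was 33.1% to 54.6% in Deficient and 41.9% to 65.8% in Control male lungs; with the libraries over 50% left out, both lung calls were kept.

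Soleus, a slow muscle, kept its arms apart in both sexes. Deficient female soleus had 1.35, 3.47 and 5.63 CPM, against 0.447, 0.711 and 1.17 CPM in Control females (log2 fold change 2.33 ± 0.32). In Deficient males the values were 2.32, 3.03 and 10.4 CPM and in Control males 0.487, 0.885 and 1.10 CPM (log2 fold change 2.21 ± 0.33). Both calls were kept in 24 of 24 refits. Among all genes tested, every Deficient library stood above every Control library in 2.4% of pairs in females and 0.923% in males; Hif3a did so in 1 female tissue (soleus) and 3 male tissues (lung, soleus, gastrocnemius tendon).

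The fast muscles followed. In EDL the log2 fold change was 1.96 ± 0.31 in females and 1.46 ± 0.30 in males, both called, with 1.59, 3.07 and 5.48 CPM in Deficient females and 0.348, 0.761 and 1.59 CPM in Control females. For TA it was 1.72 ± 0.31 in females and 1.19 ± 0.31 in males, again both called. Gastrocnemius had 1.86 ± 0.44 in females, called, and 1.44 ± 0.41 in males, not called. In quadriceps neither 1.75 ± 0.45 in females nor 1.71 ± 0.46 in males was called, although the sizes were like those of the called muscles. The EDL calls and the female TA call were kept in all 24 refits and the male TA call in 23 of 24, being lost without Deficient ZT05 replicate 2. The female gastrocnemius call held in 14 of 24, and it was lost without the libraries over 50% mitochondrial and rRNA-like.

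Of the tendons, that of gastrocnemius was called in females at 2.34 ± 0.44 and in males at 1.42 ± 0.40, the male call being lost with males fitted alone and without the libraries over 50%. Deficient male gastrocnemius tendons had 3.81, 4.82 and 13.8 CPM, against 1.15, 2.28 and 3.56 CPM in Control males, without overlap. The tendon of TA was called in females at 1.72 ± 0.31, a call lost with females fitted alone, and not in males at 1.11 ± 0.32. In the EDL tendon 0.58 ± 0.49 in females and 0.68 ± 0.52 in males were not called. Since male gastrocnemius tendons held much muscle RNA and the other tendons held fibre markers too, tendon and muscle values are not taken as independent readings of tendon cells.

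Heart was called in both sexes. Deficient female hearts had 4.64, 11.5 and 13.8 CPM, against 1.84, 3.70 and 5.20 CPM in Control females (log2 fold change 1.52 ± 0.31, kept in 24 of 24 refits). Deficient male hearts had 4.25, 9.84 and 17.8 CPM and Control male hearts 2.35, 3.54 and 6.50 CPM (log2 fold change 1.37 ± 0.37, kept in 9 of 24 refits and lost with males fitted alone). One or more libraries overlapped in each sex. In kidney the female difference was 2.18 ± 0.34, with 1.75, 4.81 and 9.08 CPM in Deficient and 0.595, 1.13 and 1.82 CPM in Control females. The male difference was 0.92 ± 0.36, with 1.39, 5.46 and 14.6 CPM in Deficient and 1.09, 2.86 and 3.40 CPM in Control males. Both were called, in a male kidney fit where 20.1% of all genes were called up; the male call was kept in 19 of 24 refits.

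The pituitary, where Hif3a was most abundant, was called in females only. Deficient female pituitaries had 20.8, 29.7 and 48.1 CPM, against 8.76, 16.5 and 22.5 CPM in Control females (log2 fold change 1.08 ± 0.27, kept in 15 of 24 refits). Male pituitaries had 35.4, 70.7 and 165 CPM in Deficient and 16.3, 35.7 and 46.5 CPM in Control animals (log2 fold change 1.06 ± 0.27) and were not called. The 2 sizes were nearly equal, and their difference was 0.02 ± 0.37 with an adjusted p of 0.992 (edgeR quasi-likelihood test). Per kilobase, Hif3a made up a median of 12.4% of the 3 alpha subunits in Deficient and 6.48% in Control female pituitaries, and 41.0% in Deficient and 36.3% in Control male pituitaries.

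Uterus and testis stood at the other end. In uterus, where 21.2% of all genes were called up and 23.8% down, Hif3a differed by 0.08 ± 0.27, with 1.06, 1.57 and 2.44 CPM in Deficient and 1.15, 1.43 and 2.39 CPM in Control animals. Testis had 10.6, 13.4 and 15.3 CPM in Deficient and 11.7, 14.3 and 16.04 CPM in Control males, a difference of -0.10 ± 0.10 and the only one below 0. Ovary (0.72 ± 0.40), female adrenal gland (0.27 ± 0.25) and male adrenal gland (0.62 ± 0.24) were not called either. BAT gave 1.86 ± 0.68 in females and 0.997 ± 0.99 in males, and spleen 1.27 ± 0.53 in females and 1.86 ± 0.66 in males, with wide errors and no call. Hif3a in liver did not pass the filter in either sex: it had 0.0841 to 0.334 CPM (median 0.191) in Deficient and 0 to 0.238 CPM (median 0.0735) in Control females. Deficient male livers had 0 to 4.85 CPM, and Control male livers were at 0 in all 6 libraries.

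The 12 females gave a library for each of 18 tissues, which lets an animal be followed through the body. Deficient ZT05 replicate 3, singled out after its values were seen, had the lowest Hif3a of the 6 Deficient females in 12 of 18 tissues, at a median of 0.358 of the median of the other 5. It stood above all 6 Control females in 3 tissues. Deficient ZT17 replicate 2 was lowest in 3 tissues, at a median of 0.603 of the others, and stood above all Control females in 11. The remaining Deficient females stood above all Control females in 13 to 14 tissues. The same ZT05 animal was lowest in 14 tissues for Ddit4 (REDD1, an inhibitor of mTOR signalling induced by hypoxia and other stresses), in 13 for Fkbp5, a co-chaperone of steroid receptors, and in 3 for Vegfa. With its library left out of every tissue, the log2 fold change of Hif3a was larger in 17 of 17 female tissues. That follows largely from leaving out an animal singled out for low values, so nothing is read from it. Hif3a was called in 10 tissues as before, where pituitary (1.15) lost its call and quadriceps (1.95) gained one.

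**Figure D2:**
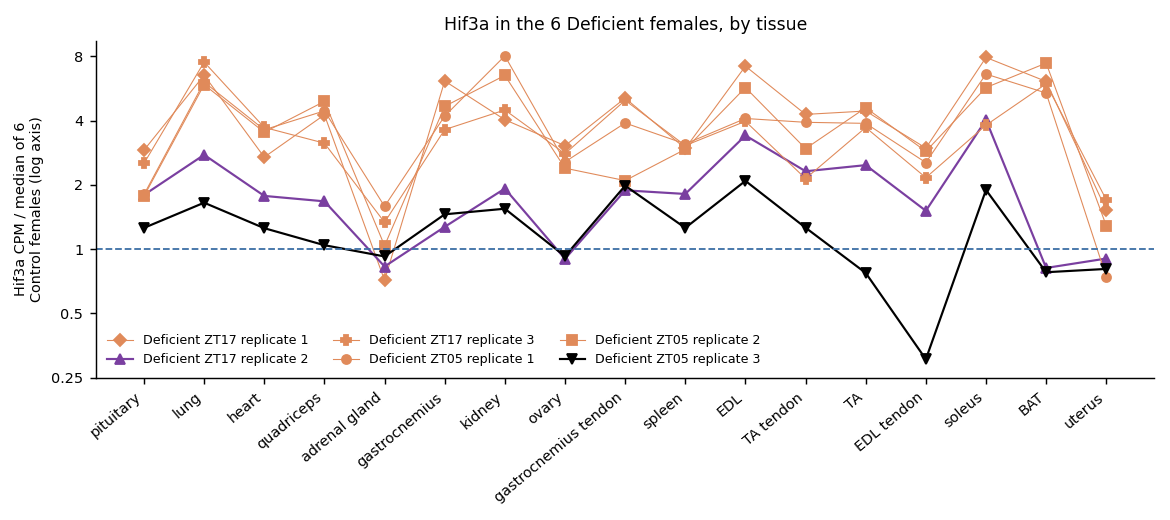
Hif3a in each of the 6 Deficient females, as a ratio to the median of the 6 Control females of the same tissue (log axis), in 17 tissues; liver is left out because its Control median is near 0. The ZT05 replicate 3 animal lies lowest in most tissues, while the other animals change order from tissue to tissue.

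The sister subunits moved far less. Hif1a was higher in Deficient females in 8 tissues and lower in 10 (median log2 fold change -0.02); in males it was lower in 13 of 17 (median -0.18). It was called in 2 male tissues and in opposite directions. Deficient male gastrocnemius tendons had 6.21, 7.54 and 10.8 CPM of Hif1a, against 10.03, 11.8 and 28.0 CPM in Control males (log2 fold change -1.004 ± 0.23), overlapping at the edge. That call was lost with a cohort term and with males fitted alone; over all alternatives the value ran from -1.20 to -0.49. Male kidney went the other way: 48.8, 67.1 and 84.4 CPM in Deficient and 48.0, 53.1 and 57.6 CPM in Control males (log2 fold change 0.36 ± 0.11).

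Epas1 leaned upward by small amounts, above Control in 14 of 18 female tissues (median 0.12) and 15 of 17 male tissues (median 0.25), and was called in 1 and 2 of them. Deficient male kidneys had 142, 146 and 181 CPM, against 99.6, 121 and 132 CPM in Control males, without overlap (log2 fold change 0.35 ± 0.09). Male BAT had 403, 629.7 and 902 CPM in Deficient and 234, 492 and 628 CPM in Control animals, with overlap (log2 fold change 0.54 ± 0.15), a call kept under 4 of 7 alternatives. In female EDL the difference was 0.21 ± 0.06. Female liver (142, 163 and 174 CPM in Deficient and 100.4, 109 and 127 CPM in Control animals; log2 fold change 0.52 ± 0.18) and male heart (246, 249.6 and 335 CPM in Deficient and 204, 223 and 240.0 CPM in Control animals; log2 fold change 0.25 ± 0.09) did not overlap between arms but were not called.

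Taking the 7 members that were tested, females had 125 pairs of member and tissue, of which 14 were called up and 7 down, beside 4.93% up and 5.29% down over all genes. Males had 118 pairs, with 16 called up and 3 down, beside 3.09% and 3.16%. Hif3a supplied 10 of the 14 female and 7 of the 16 male calls upward. Epas1, Egln1 and Egln3 supplied the other female ones, at 0.21 to 0.35. The members were chosen on these comparisons, so the shares describe the choice.

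**Figure D3:**
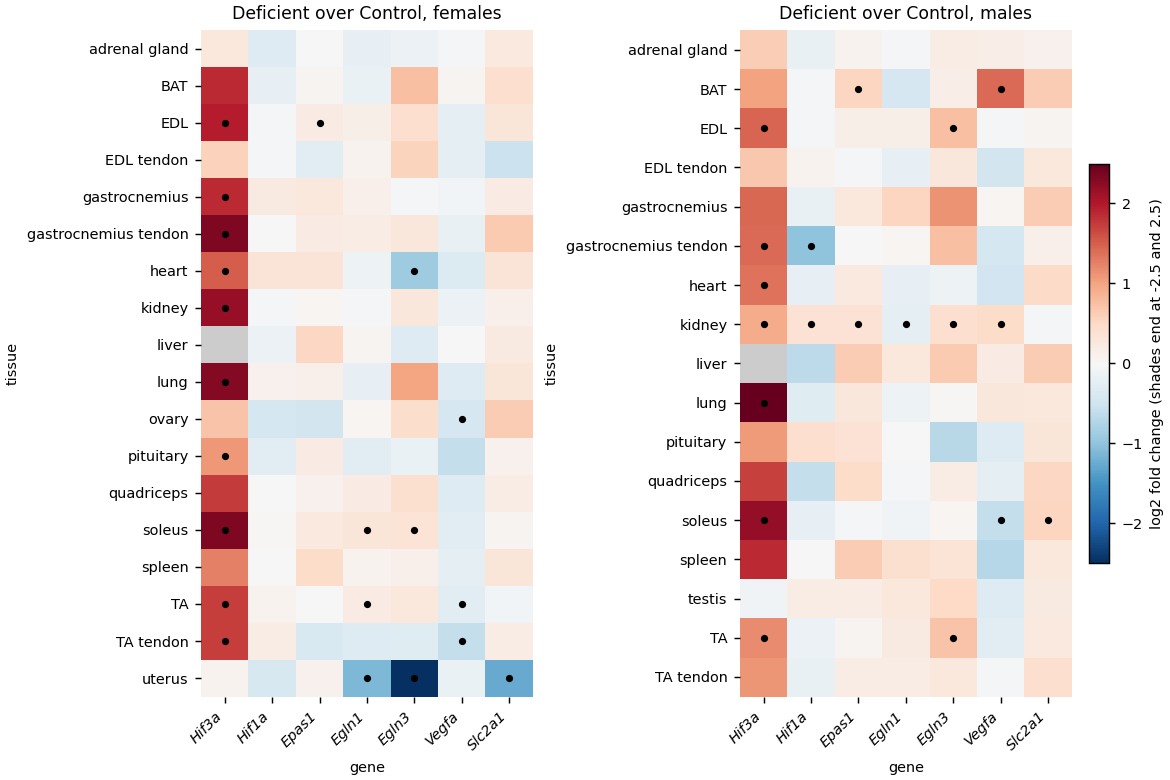
Deficient minus Control log2 fold change of 7 members (columns) in each tissue (rows), females and males in separate panels; a dot marks a called difference and grey a gene or tissue that was not tested. The Hif3a column is positive nearly throughout, Vegfa leans negative in females, and the uterus row is negative for Egln3, Egln1 and Slc2a1.

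Egln3 had the largest single difference of the set, in the uterus. Deficient uteri had 8.72, 9.56 and 22.2 CPM of Egln3, against 32.0, 167 and 338 CPM in Control uteri, so that every Deficient library lay below every Control library (log2 fold change -4.01 ± 0.52); the Control libraries themselves differed widely. Egln1 in uterus had 67.7, 85.3 and 119 CPM in Deficient and 105, 171 and 319.9 CPM in Control animals (log2 fold change -1.12 ± 0.18), with overlap in the low Control libraries. Slc2a1 in uterus had 30.3, 34.0 and 41.7 CPM in Deficient and 34.2, 74.7 and 184 CPM in Control animals (log2 fold change -1.25 ± 0.33). These 3 calls were kept under 6 of 6 alternatives and in 12 of 12 refits. Hif1a (-0.41), Epas1 (0.11) and Vegfa (-0.16) in uterus were not called.

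Other genes of the pathway in uterus, from 7 lists written by role, showed 13 called up and 34 called down of 77 (16.9% and 44.2%, beside the 21.2% and 23.8% of all genes given above). Car9, a membrane carbonic anhydrase and a standard marker of hypoxic cells, fell by 3.75 ± 0.48 (edgeR quasi-likelihood test, adjusted p = 0.000287), with a mean level of 3.33 ± 2.20 CPM in Deficient and 42.9 ± 23.6 CPM in Control uteri (SD, n = 6 each). Slc16a3, the lactate exporter MCT4, gave -3.65 ± 0.65 (adjusted p = 0.00111), and the glycolytic enzymes Hk2 -2.30 ± 0.30, Ldha -1.89 ± 0.27 and Pgk1 -1.83 ± 0.25, all called. Of the 20 genes of glucose use 12 fell and 1, Hk1, rose. Arnt2, a HIF partner subunit, rose by 2.13 ± 0.61 (adjusted p = 0.0146) and P4htm, a membrane-bound prolyl hydroxylase, by 1.51 ± 0.29 (adjusted p = 0.00185). Cell type markers moved with these genes: 10 of 12 endothelial markers rose, with a summed level of 531 to 915 CPM in Deficient and 354 to 578 CPM in Control uteri, and 7 of 9 macrophage markers fell, with 299 to 578 CPM in Deficient and 769.7 to 1212 CPM in Control uteri. No marker of either list was at 0. Of the erythroid markers 3 of the 4 tested fell, with sums of 2.12 to 7.87 CPM in Deficient and 7.18 to 25.4 CPM in Control uteri; Hba-a2 was at 0 in both arms and Slc4a1 in Deficient uteri. Of the muscle fibre markers 3 of the 6 tested fell, with sums of 24.5 to 46.2 CPM in Deficient and 51.5 to 198 CPM in Control uteri, and 1 of 9 adipocyte markers fell. The part of these lists in the results was not tested.

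Outside the uterus the hydroxylases changed by smaller steps. Egln3 in female heart had 82.4, 116 and 154 CPM in Deficient and 137, 233 and 268 CPM in Control animals, with little overlap (log2 fold change -0.88 ± 0.13, kept in 24 of 24 refits). In males Egln3 was higher in 15 of 17 tissues and called in 3. Deficient male EDL had 91.8, 126 and 182 CPM, against 59.3, 62.6 and 153 CPM in Control males (log2 fold change 0.74 ± 0.21). Male TA gave 0.71 ± 0.20 and male kidney 0.43 ± 0.15, and female soleus 0.35 ± 0.12, the last kept in 10 of 24 refits. All of these arms overlapped. Egln1 was called up in female soleus at 0.29 ± 0.08 and female TA at 0.21 ± 0.08, the TA call under 3 of 6 alternatives, and down in male kidney at -0.24 ± 0.06. In male EDL the 6 Deficient libraries held 376 to 403 CPM (median 390.3) of Egln1 and the Control libraries 318 to 369 CPM (median 353). Male TA held 445 to 507 CPM (median 459.9) in Deficient and 379 to 424 CPM (median 399.6) in Control libraries. Neither pair of arms overlapped and neither was called, at 0.15 ± 0.06 and 0.22 ± 0.08.

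Vegfa leaned downward in Deficient animals, below Control in 17 of 18 female tissues (median -0.25) and 11 of 17 male tissues (median -0.24). It was called down in 3 female tissues. Ovary had 79.1, 94.3 and 125 CPM in Deficient and 115, 131 and 148 CPM in Control animals (log2 fold change -0.43 ± 0.12), a call kept in 3 of 12 refits. The TA tendon gave -0.60 ± 0.17 and TA -0.29 ± 0.09, with overlapping arms; the tendon call was lost with females fitted alone. Male soleus had 179.8, 244 and 339 CPM in Deficient and 264, 317 and 656 CPM in Control animals (log2 fold change -0.60 ± 0.13). Male BAT and male kidney went up. In BAT the arms were 86.3, 126 and 679 CPM in Deficient and 70.9, 109.6 and 150.3 CPM in Control males, and the value of 1.42 ± 0.41 was called under 2 of 7 alternatives and in 5 of 24 refits, with a range of 0.68 to 1.64. Beside it, 4 of 9 adipocyte markers rose in male BAT, with sums of 20574 to 33802 CPM in Deficient and 8779 to 17410.4 CPM in Control males. Mitochondrial and rRNA-like genes took a mean of 76.8% of counts in Deficient and 85.9% in Control male BAT. The Deficient males of BAT also included a second-cohort library. The part of the adipocyte, mitochondrial and rRNA-like genes was not tested.

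Slc2a1 leaned upward, above Control in 15 of 18 female tissues (median 0.21) and 16 of 17 male tissues (median 0.27), but was called up once. Male soleus had 22.4, 27.7 and 39.7 CPM in Deficient and 9.43, 20.7 and 36.6 CPM in Control animals, with wide overlap (log2 fold change 0.54 ± 0.15, kept in 19 of 24 refits). Its value there depended on the time of day, given below. In females it was lower in uterus (above), EDL tendon (-0.54 ± 0.27) and TA (-0.07 ± 0.12), the last 2 not called.

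In 4 tissues where single members were abundant, the values of the arms overlapped and the differences below were not called. Epas1 had 2472, 2776 and 3691 CPM in Deficient and 2285, 2707 and 3091 CPM in Control female lungs (log2 fold change 0.12 ± 0.19), and 1707, 2510.4 and 4447 CPM in Deficient and 1368, 2131 and 2890.5 CPM in Control male lungs (0.29 ± 0.19). Hif1a had 144, 175 and 182 CPM in Deficient and 164, 191 and 329 CPM in Control ovaries (-0.44 ± 0.19). Slc2a1 had 96.5, 164 and 194 CPM in Deficient and 33.0, 120.0 and 148 CPM in Control ovaries (0.63 ± 0.26). In the adrenal gland Vegfa had 198, 288 and 496 CPM in Deficient and 168, 330.1 and 479 CPM in Control females (-0.04 ± 0.22), and 473, 667 and 971 CPM in Deficient and 543, 600.1 and 650.1 CPM in Control males (0.16 ± 0.22). Quadriceps held Egln3 at 162, 237 and 393 CPM in Deficient and 88.6, 235 and 299 CPM in Control females (0.39 ± 0.46).

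Male kidney was the tissue in which most members were called: Hif3a, Hif1a, Epas1, Egln3 and Vegfa up and Egln1 down, with Slc2a1 at -0.02 ± 0.13 not called. The background was high, since 20.1% of genes were called up and 20.8% down. Of 77 other pathway genes 11 rose and 20 fell there (14.3% and 26.0%). The risers included Kdm3a, a histone demethylase and HIF target (0.64 ± 0.12, adjusted p = 0.000328), Pdk1, which diverts pyruvate from mitochondria (0.56 ± 0.08, adjusted p = 1.50e-05), and Arnt, the common partner subunit (0.31 ± 0.07, adjusted p = 0.00148). Of the 20 genes of glucose use 8 fell and 3 rose. Those that fell included the glycolytic enzymes Gapdh (-0.63 ± 0.08), Ldha (-0.64 ± 0.08) and Tpi1 (-0.68 ± 0.10), as did Egln2, the third prolyl hydroxylase (-0.44 ± 0.10). Macrophage markers fell in 6 of 9 cases, with sums of 84.2 to 141 CPM in Deficient and 147 to 298 CPM in Control males. Erythroid markers fell in 4 of the 5 tested, with sums of 143 to 431 CPM in Deficient and 422 to 775 CPM in Control males, and 3 of 9 adipocyte markers rose. Their part in the kidney values was not tested.

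A difference in response between males and females was called for 1 member, a share not above that of all genes. In kidney Vegfa had 209, 240.0 and 286 CPM in Deficient and 133, 156 and 279 CPM in Control males, but 224, 232 and 274 CPM in Deficient and 229.5, 266 and 311 CPM in Control females. The male response was 0.46 ± 0.11 and the female response -0.14 ± 0.11. All 6 Deficient males lay above the Control male median, and 5 of 6 Deficient females lay below the Control female median. The female minus male difference was -0.60 ± 0.16 (edgeR quasi-likelihood test, adjusted p = 0.0152), kept under 5 of 5 alternatives and in 24 of 24 refits. It was the only call among 111 pairs of member and tissue (0.901%), beside 1.15% over all genes. In the same tissue Hif3a differed by 1.26 ± 0.49 (adjusted p = 0.0901), which missed the threshold. All kidney males were of the second cohort, so the difference between the sexes and that between cohorts cannot be told apart.

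Time of day moved several members. ZT17 minus ZT05, averaged over the sexes present, was called in 3 of 132 pairs of member and tissue in Deficient animals (2 up, 1 down), beside 0.789% up and 0.812% down over all genes, and in 17 of 132 in Control animals (11 up, 6 down), beside 2.6% up and 2.66% down. The response to deficiency differed between the times in 7 of 132 pairs, beside 1.9%; this last difference uses the same libraries as the others, so the 3 sets of values are not independent. That the 2 counts of calls differ was itself not tested.

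For Hif3a the response was smaller at ZT17 than at ZT05 in 15 of 18 tissues, with a median difference (response at ZT17 minus response at ZT05) of -0.80. Averaged over the sexes present, Hif3a was lower at ZT17 in Deficient animals in 14 of 18 tissues (median -0.31), and higher in Control animals in 16 of 18 (median 0.51). These averages join sexes that differed. By group means, Deficient males were lower at ZT17 in most tissues, but Deficient females were higher in most. Control females were higher at ZT17 in every tissue where Hif3a passed the filter, while Control males went both ways. The pooled fall in Deficient animals was thus mainly male and the pooled rise in Control animals mainly female. Deficient pituitaries had means of 39.8 CPM at ZT17 and 26.6 at ZT05 in females, and 54.0 and 103 in males. Control soleus had 0.994 and 0.495 CPM in females, and 0.721 and 0.988 in males. In Deficient kidneys both sexes were lower at ZT17. The difference in response was called in kidney and EDL. At ZT17 Deficient male kidneys had 1.39, 1.78 and 3.83 CPM and Control male kidneys 1.09, 3.07 and 3.30. At ZT05 the values were 7.10, 9.45 and 14.6 CPM in Deficient and 2.32, 2.65 and 3.40 in Control males. Male groups thus overlapped at ZT17 and stood apart at ZT05. For groups of 3 libraries, here and below, the share of all genes without overlap is not given, so nothing is read from such separations. In females the ZT17 values were 2.17, 4.56 and 5.06 CPM in Deficient and 1.56, 1.81 and 1.82 in Control kidneys, and the ZT05 values 1.75, 7.35 and 9.08 in Deficient and 0.595, 0.684 and 0.699 in Control kidneys, apart at both times. The response averaged over the sexes was 0.56 at ZT17 and 2.54 at ZT05, a difference of -1.98 ± 0.49, kept in 23 of 24 refits and lost without male Control ZT17 replicate 2.

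In EDL the response was 0.85 at ZT17 and 2.56 at ZT05, a difference of -1.71 ± 0.43, kept in 6 of 24 refits and not called with either sex fitted alone. Deficient male EDL had 2.05, 2.5004 and 2.73 CPM at ZT17 and Control male EDL 1.21, 2.22 and 2.80. At ZT05 the values were 4.45, 7.98 and 10.8 in Deficient and 0.501, 1.36 and 1.58 in Control males. Deficient female EDL had 2.59, 3.02 and 5.48 CPM at ZT17 and 1.59, 3.12 and 4.35 at ZT05. Control female EDL had 0.818, 1.46 and 1.59 CPM at ZT17 and 0.348, 0.632 and 0.703 at ZT05. Lung was steady by comparison, with responses of 2.34 at ZT17 and 2.76 at ZT05. Among the 6 Control females, the 3 collected at ZT17 had mean ranks of 4.39 to 5.11 for Hif3a over the 18 tissues and the 3 collected at ZT05 of 2.06 to 2.36.

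**Figure D4:**
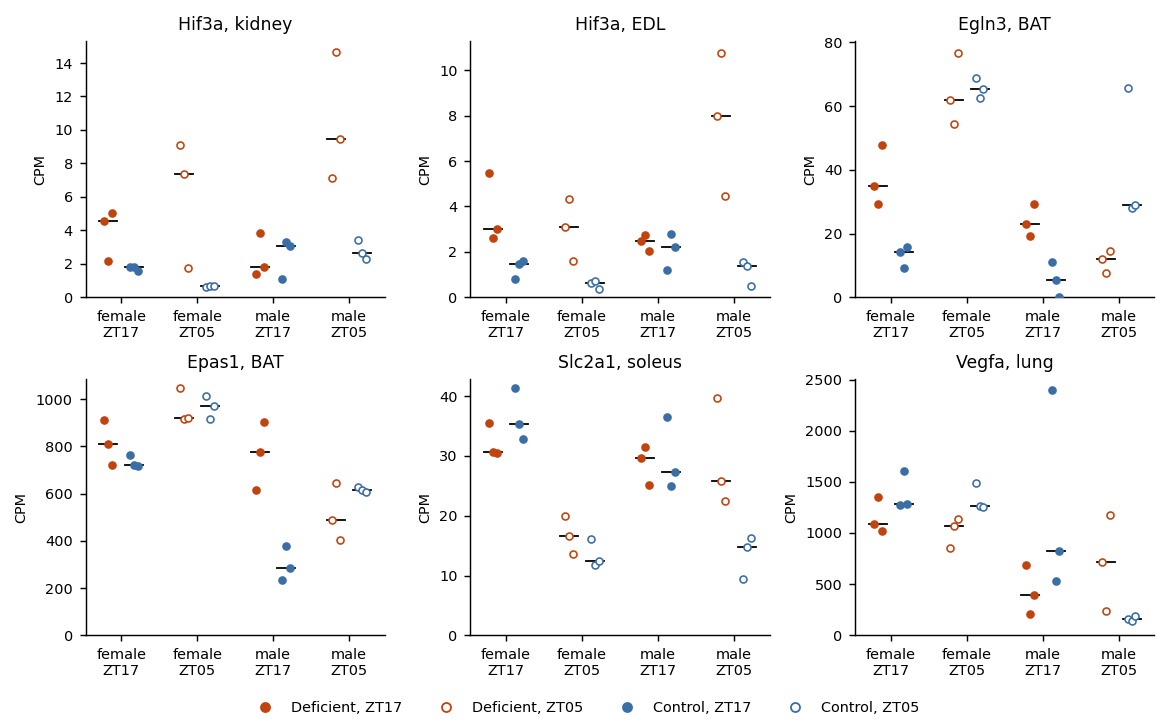
CPM of 6 pairs of member and tissue at ZT17 (filled) and ZT05 (open) in Deficient and Control females and males; each point is 1 library and black lines mark medians. In kidney and EDL the Deficient Hif3a values lie furthest above Control at ZT05, and in BAT the Control Egln3 values of both sexes and the male Control Epas1 values are low at ZT17.

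BAT held 3 of the 7 differences by time. Its Egln3 gave a ZT17 minus ZT05 difference of 0.14 ± 0.27 in Deficient animals, not called, and of -2.62 ± 0.31 in Control animals, called. Female BAT at ZT17 had 29.4, 35.0 and 47.6 CPM of Egln3 in Deficient and 9.15, 14.1 and 15.6 in Control animals. At ZT05 it had 54.2, 61.9 and 76.7 in Deficient and 62.6, 65.3 and 68.7 in Control females. Deficient males had 19.3, 22.8 and 29.3 CPM and Control males 0, 5.28 and 11.1 at ZT17, and at ZT05 Deficient males had 7.61, 11.97 and 14.4 and Control males 28.0, 28.8 and 65.7. The male values rest on few reads, 0 to 6 a library in Control males at ZT17 and 4 to 13 in Deficient males at ZT05. Deficient males at ZT17 held 29 to 390 reads, in a group that joined a second-cohort library to first-cohort ones. At ZT17 every Deficient library stood above every Control library of its sex. The difference in response was 2.75 ± 0.42, called under 9 of 9 alternatives and in 24 of 24 refits (range 1.57 to 3.73).

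Epas1 in BAT gave a difference in response of 0.90 ± 0.21, with 617, 777 and 902 CPM in Deficient and 234, 285 and 377 in Control males at ZT17, and 403, 488 and 643 in Deficient and 608, 616 and 628 in Control males at ZT05. Female Epas1 at ZT17 was 722, 808 and 912 CPM in Deficient and 715, 719 and 762 in Control animals, a smaller separation, and the call was lost with females fitted alone and without the libraries over 50% mitochondrial and rRNA-like. Hif1a in BAT, with 7 to 14 reads a library in Control males at ZT17, gave 0.95 ± 0.31, called under 3 of 9 alternatives and in 9 of 24 refits. In this tissue 8.07% of all genes were called up and 6.41% down for the same difference.

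Soleus and lung held the remaining pair. Slc2a1 in soleus was higher at ZT17 in Control animals by 1.28 ± 0.15. Deficient female soleus had 30.5, 30.7 and 35.5 CPM at ZT17 and Control female soleus 32.8, 35.4 and 41.3, and at ZT05 13.6, 16.6 and 19.9 in Deficient and 11.8, 12.4 and 16.1 in Control animals. Deficient males had 25.2, 29.6 and 31.6 CPM and Control males 25.03, 27.3 and 36.6 at ZT17, overlapping, and at ZT05 22.4, 25.8 and 39.7 in Deficient and 9.43, 14.7 and 16.3 in Control males, without overlap. The difference in response was -0.82 ± 0.21, kept in 15 of 24 refits.

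Vegfa in lung gave -1.76 ± 0.48, with values that differed by sex. Deficient males had 206, 398 and 683 CPM at ZT17 and Control males 527, 825 and 2395, and at ZT05 Deficient males had 241, 714 and 1174 and Control males 141, 161 and 189.8. Females had 1023, 1087 and 1349 in Deficient and 1273, 1282 and 1609 in Control lungs at ZT17, and 852, 1064 and 1133 in Deficient and 1253, 1261 and 1486 in Control lungs at ZT05. With females fitted alone the difference turned to 0.13; it was not called with males alone or without the libraries over 50%, and was kept in 9 of 24 refits. In the limb muscles Vegfa was higher at ZT17 in both treatments: Deficient EDL gave 0.41 ± 0.10 and Control EDL 0.61 ± 0.10, Deficient TA 0.37 ± 0.09 and Control TA 0.69 ± 0.09, all called.

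Other genes of the pathway did not all follow Hif3a. The 7 lists held 77 genes of the table, and in females 83 of 1362 pairs of gene and tissue rose and 138 fell (6.09% and 10.1%, beside 4.93% and 5.29% over all genes). In males 57 of 1281 rose and 63 fell (4.45% and 4.92%, beside 3.09% and 3.16%). Among targets of glucose use 3 of 356 female pairs rose and 53 fell (median log2 fold change -0.14), and in males 8 of 336 rose and 21 fell (median -0.08). HIF partners and coactivators had 15 of 88 female pairs up (median 0.20), and 8 of 83 male pairs up and 1 down. Genes of oxygen sensing and HIF breakdown had 4 of 179 female pairs up and 6 down, and 5 of 169 male pairs up and 4 down. For targets of acid balance and iron, 3 of 97 female pairs rose and 20 fell, and 2 of 90 male pairs rose and 8 fell. Vessel and growth factor targets had 9 up and 18 down of 213 in females and 2 up and 13 down of 199 in males. Mitochondrial and autophagy targets had 12 up and 11 down of 125 in females and 6 up and 5 down of 117 in males. The remaining targets had 37 up and 30 down of 304 in females and 26 up and 11 down of 287 in males.

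The genes called in most tissues were the following. Ddit4 rose in 7 female tissues (1.41 to 2.28) and 5 male tissues (1.44 to 2.16) and fell in uterus at -1.66 ± 0.43. Deficient female EDL had 26.7 ± 21.0 CPM of Ddit4 and Control female EDL 6.41 ± 2.47 CPM (SD, n = 6 each; log2 fold change 2.12 ± 0.38, edgeR adjusted p = 0.000302, 5 of 6 Deficient libraries above the Control median). Bnip3, a mitophagy receptor, rose in 7 female tissues by small amounts (0.36 to 0.68) and in 4 male tissues. Kdm3a rose in 6 female tissues, and Stc2, a secreted glycoprotein, in 5 female and 6 male tissues, with a fall in uterus. P4ha1, a prolyl hydroxylase of collagen, fell in 11 female tissues (-1.05 to -0.59) and 5 male tissues. Apln, the vessel peptide apelin, fell in 9 female and 7 male tissues. Female hearts had 8.02 ± 2.40 CPM of Apln in Deficient and 21.998 ± 5.28 CPM in Control animals (log2 fold change -1.47 ± 0.21, edgeR adjusted p = 0.000748, 6 of 6 Deficient libraries below the Control median). Tfrc, the transferrin receptor, fell in 7 female and 6 male tissues but rose in female BAT at 1.19 ± 0.29 and in male BAT at 2.47 ± 0.35. Ldha, lactate dehydrogenase A, fell in 7 female tissues.

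**Figure D5:**
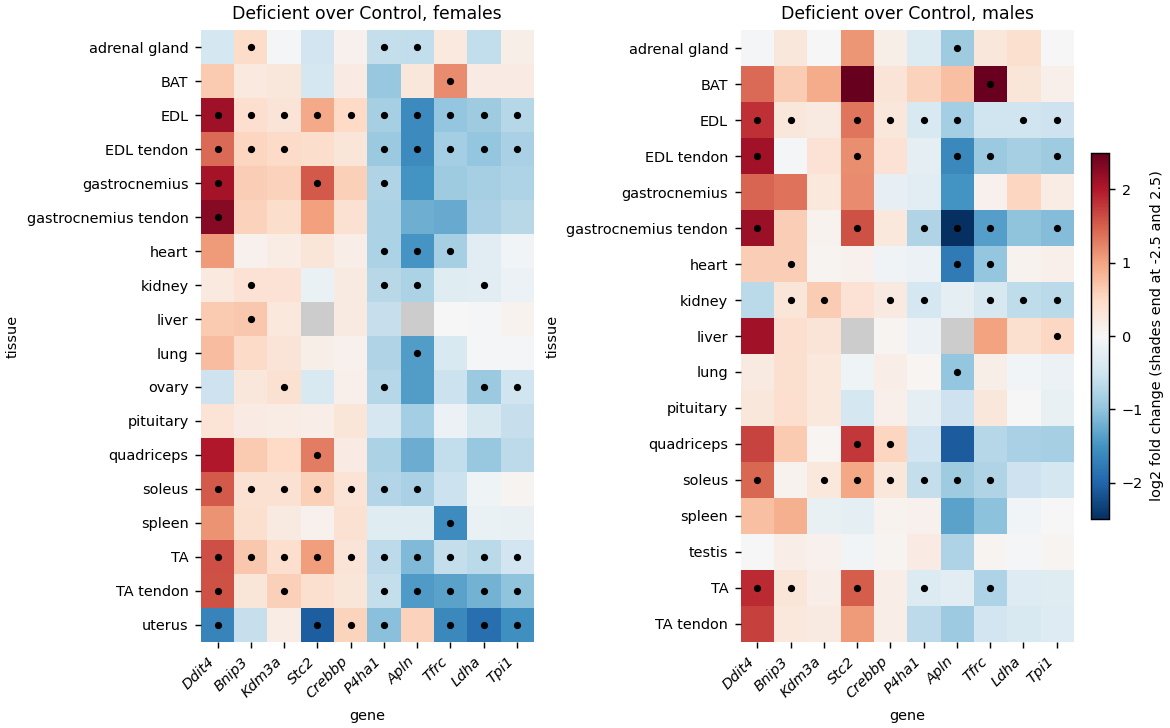
Deficient minus Control log2 fold change of the pathway genes called in most tissues (columns) by tissue (rows) and sex (panels); a dot marks a called difference and grey a gene that was not tested. Ddit4, Bnip3 and Kdm3a are mostly positive, P4ha1, Apln, Tfrc and Ldha mostly negative, and the uterus row departs from both for Ddit4 and Stc2.

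Markers of other cells moved beside these genes in several tissues. Over all genes 4.93% of female pairs rose and 5.29% fell, and 3.09% of male pairs rose and 3.16% fell. Erythroid markers fell in 43 of 82 female pairs (52.4%) and 17 of 77 male pairs (22.1%). Macrophage markers fell in 35 of 162 female pairs (21.6%) and 7 of 153 male pairs (4.58%). They fell in 7 of 9 cases in female EDL, 8 of 9 in female soleus and 7 of 9 in female TA, where Hif3a was called up. They also fell in 7 of 9 cases in uterus and 5 of 9 in ovary, where Hif3a was not called. The shares of all genes called down in EDL, soleus, TA and ovary alone are not given here. In female gastrocnemius, where Hif3a was called up too, 0 of 9 fell by the edgeR test (6 at an unadjusted p under 0.05; median log2 fold change -0.84). Macrophage sums were 106 to 225 CPM in Deficient and 239.7 to 663 CPM in Control female soleus. Endothelial markers rose in 16 and fell in 9 of 216 female pairs (7.41% and 4.17%). In males they rose in 3 and fell in 4 of 204 pairs (1.47% and 1.96%), below the shares of all genes. Muscle fibre markers fell in 10 and rose in 2 of 134 female pairs (7.46% and 1.49%). Adipocyte markers fell in 11 and rose in 2 of 152 female pairs (7.24% and 1.32%). In males they rose in 16 and fell in 2 of 139 pairs (11.5% and 1.44%). The part of these lists in the member values was not tested.

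The genes whose response was most like that of Hif3a were sought by Pearson correlation of the log2 fold change over 33 comparisons of tissue and sex, among 11042 genes tested in every tissue; the comparisons share animals, and no p is given. Pim3, a serine/threonine kinase, had r = 0.633, Fkbp5 0.623, Cdk11b 0.601, Sgf29 0.577 and Nfkbia, the inhibitor of NF-kappa-B, 0.577. Fkbp5 was called up in 13 female and 11 male tissues (median log2 fold change 1.29 in females and 1.503 in males), Pim3 in 7 and 4, Nfkbia in 3 and 2, Cdk11b in 3 and 3, and Sgf29 in 1 female tissue. Among the other members r was 0.36 for Slc2a1, 0.32 for Egln3 and 0.29 for Egln1, at percentiles 95.3, 92.6 and 90.4 of these genes. It was 0.19 for Epas1, 0.06 for Hif1a and -0.10 for Vegfa, at percentiles 77.3, 55.7 and 28.6.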

How the data were processed

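Bulk RNA was sequenced in 419 mouse libraries (total RNA by TRIzol, stranded poly(A) libraries, per the labels' protocols). The submitters' processing notes name FastQC 0.11.9, cutadapt 4.1, STAR 2.7.10a, DESeq2 1.34.0 and the GRCm38 (mm10) build; the counting tool, annotation release and strand setting are not given in the sources used here. The authors deposited whole-number read counts per gene, used as deposited; 0 columns lacked a sample, and a second, normalized table was not used here. The 8 members, the gene lists and the tests were chosen with earlier results of these data known; the pathway genes named are those called in most tissues or with the largest change in a tissue.

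Each tissue was fitted alone in edgeR 4.0.16 (R 4.3.3): filterByExpr (minimum count 10, total 15), TMM, a coefficient for every combination of sex, time and treatment, quasi-likelihood F tests, and Benjamini-Hochberg adjustment over all genes of the tissue, with calls at adjusted p under 0.05. Responses are Deficient minus Control, as the mean of the ZT17 and ZT05 differences. The script was tested on simulated data. The alternatives were DESeq2 size factors, no filter, 5 CPM in 3 libraries, DESeq2 1.42.0, a replicate block, each sex alone, a cohort term, single libraries left out and, added after seeing the data, leaving out libraries over 50% mitochondrial and rRNA-like. Counts limit precision by counting error; no identical or duplicate libraries were found.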

Additional observations from a re-analysis of the deposited data

Results flagged for a closer look

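Of the members' responses to deficiency, 7 differed between the collection times and 1 between the sexes by the test of that difference over all genes (edgeR quasi-likelihood, Benjamini-Hochberg). Those were 7 of 132 and 1 of 111 pairs of member and tissue (5.30% and 0.901%), beside 1.9% and 1.15% over all genes. Response at ZT17 minus response at ZT05 was 2.75 ± 0.42 for Egln3, 0.90 ± 0.21 for Epas1 and 0.95 ± 0.31 for Hif1a in BAT. The same difference was -1.98 ± 0.49 for Hif3a in kidney and -1.71 ± 0.43 for Hif3a in EDL. It was -0.82 ± 0.21 for Slc2a1 in soleus and -1.76 ± 0.48 for Vegfa in lung. These members were chosen with their times in view, so no p is given. Female minus male response was -0.60 ± 0.16 for Vegfa in kidney (edgeR adjusted p = 0.0152), where sex and cohort cannot be told apart. No group had the 4 libraries needed to look for a single library far from the rest.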

How the results depend on the processing

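Of 20384 recomputed values of 692 single results, 19917 were classed as the same, 258 as weaker, 208 as moved and 1 as reversed. These classes do not measure how well calls held. With DESeq2 all 692 values were classed as the same, while the counts of calls changed as given below. The 1 that turned its sign was the time difference of Vegfa in lung with females fitted alone (0.13). In counts of member calls, without the filter 5 male responses were down (3 in the fit as reported), 12 time differences within Deficient animals were called (3) and 6 sex differences (1); with DESeq2 5 male responses were down and 3 sex differences were called. Females alone gave 9 calls by time within Deficient animals, 11 within Control animals (17) and 1 difference of response by time (7), and 128 pathway genes up (83); males alone gave 8 within Control animals and 2 differences of response. Without the libraries over 50% mitochondrial and rRNA-like, 6 members were called by time within Deficient animals and 4 differed in response by time. Fits of 1 sex hold fewer libraries; the other causes were not tested. With 1 library left out, member calls ran over 8 to 15 up and 5 to 8 down in females, 9 to 16 up and 3 to 5 down in males, 2 to 4 by time in Deficient and 14 to 20 in Control animals, 3 to 7 in response by time and 1 to 2 by sex. Pathway calls ran over 60 to 92 up and 106 to 147 down in females and 43 to 61 up and 44 to 69 down in males. One scaling run over all tissues gave Hif1a in uterus 86.5 CPM (204 as reported), Epas1 in lung 1266 CPM (2617) and Slc2a1 in ovary 59.4 CPM (131); Control females alone gave Egln1 in TA 278 CPM (367).

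Replicate numbers did not pair libraries (mean correlation of deviations -0.0248 to 0.121 by tissue), and the replicate block left every count of member calls within 1.5 times its value. Depth limits Epo everywhere, Hif3a in liver, male spleen and male BAT, and Egln3 and Slc2a1 in male BAT and male liver.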

Other observations

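Other genes of the oxygen pathway had their own tissues (edgeR quasi-likelihood test throughout; mean ± SD over 6 libraries an arm). Female liver raised Vldlr, the very low density lipoprotein receptor, with 23.3 ± 4.75 CPM in Deficient and 7.995 ± 4.003 CPM in Control livers (1.63 ± 0.20, adjusted p = 3.65e-06, 6 of 6 Deficient libraries above the Control median). In the female adrenal gland Hmox1, which breaks down heme, had 100.1 ± 41.0 CPM in Deficient and 52.9 ± 11.4 CPM in Control glands (0.84 ± 0.17, adjusted p = 0.00600, 5 of 6 Deficient libraries above the Control median). Quadriceps raised Stc2 in both sexes: 39.6 ± 17.7 CPM in Deficient and 15.4 ± 3.003 CPM in Control females (1.29 ± 0.24, adjusted p = 0.00786, 6 of 6 Deficient libraries above the Control median) and 17.2 ± 7.73 CPM in Deficient and 5.05 ± 1.65 CPM in Control males (1.78 ± 0.26, adjusted p = 0.00169, 6 of 6 Deficient libraries above the Control median). Male lung raised Lox, a collagen crosslinking enzyme, with 51.5 ± 33.6 CPM in Deficient and 21.8 ± 8.95 CPM in Control males (1.26 ± 0.31, adjusted p = 0.0218, 6 of 6 Deficient libraries above the Control median). Car12, a membrane carbonic anhydrase, fell in ovary with 12.7 ± 4.70 CPM in Deficient and 71.7 ± 65.4 CPM in Control ovaries (-2.496 ± 0.62, adjusted p = 0.0336, 6 of 6 Deficient libraries below the Control median), a call kept in 4 of 12 refits without 1 library. Male BAT lowered Ankrd37, a HIF target, with 2.54 ± 2.06 CPM in Deficient and 14.0 ± 8.93 CPM in Control males (-2.59 ± 0.51, adjusted p = 0.00487, 6 of 6 Deficient libraries below the Control median), beside the rise of Tfrc there. These levels rest on few reads in most libraries. In Control males at ZT17 a mean of 24.3 CPM of Hif1a in BAT was 7 to 14 reads a library. Most counts in male BAT fell on mitochondrial and rRNA-like genes, and the Deficient males included a second-cohort library.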
